A study of Mus musculus with 5 samples.

Results

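The 10 genes described here encode proteins stored in neutrophil granules or held in the neutrophil cytosol: Camp, Ltf, Ngp, Lcn2, Mpo, Elane, Prtn3, S100a8, S100a9 and Slpi. They were chosen by symbol from the 32285 genes of the deposited tables, and they were chosen with results of these data known, the contrast of the genotypes included. Their levels by cell class and their differences between genotypes are therefore given as a description. The data are droplet-based 3′ single-cell RNA counts of whole mouse lungs, dissociated at E18.5, shortly before birth, from 5 embryos, with 1 library per embryo. By the labels, 2 embryos were Zswim8+/- (Het1 and Het2) and 3 were Zswim8-/- (KO1, KO2 and KO3), so no wild-type lung was compared and every embryo carried at least 1 disrupted copy. Zswim8 encodes the substrate receptor of a cullin ubiquitin ligase, known for its part in microRNA decay. Red cells had been lysed before loading, and a barcode is the tag of 1 droplet. Values per library are given in the order Het1 then Het2, and KO1 then KO2 then KO3.

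Neutrophils mature in the bone marrow and fetal liver in steps, and each step fills another set of granules. Myeloblasts and promyelocytes make the primary granule proteins, which include myeloperoxidase (Mpo), neutrophil elastase (Elane) and proteinase 3 (Prtn3). Myelocytes and metamyelocytes then make the specific granule proteins, which include the cathelicidin precursor (Camp), lactoferrin (Ltf), neutrophilic granule protein (Ngp) and lipocalin 2 (Lcn2), a protein that binds bacterial siderophores. S100a8 and S100a9 encode the calgranulins, which form the heterodimer calprotectin and make up much of the neutrophil cytosol. Slpi encodes an inhibitor of neutrophil elastase. Lcn2 and Slpi are also known as products of mucosal epithelium.

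All 10 genes are protein-coding in the GENCODE annotation of GRCm38. Camp (ENSMUSG00000038357, chromosome 9, 109847379 to 109849617, minus strand), Ngp (ENSMUSG00000032484, chromosome 9, 110419747 to 110423012, plus strand) and Ltf (ENSMUSG00000032496, chromosome 9, 111019271 to 111042767, plus strand) lie on 1 chromosome. Prtn3 (ENSMUSG00000057729, chromosome 10, 79874476 to 79883174) and Elane (ENSMUSG00000020125, chromosome 10, 79886247 to 79888215) are neighbours on the plus strand. S100a8 (ENSMUSG00000056054, chromosome 3, 90668978 to 90670035, plus strand) and S100a9 (ENSMUSG00000056071, chromosome 3, 90692632 to 90695721, minus strand) are neighbours too. Lcn2 (ENSMUSG00000026822, chromosome 2, 32384633 to 32388252), Slpi (ENSMUSG00000017002, chromosome 2, 164354070 to 164389095) and Mpo (ENSMUSG00000009350, chromosome 11, 87793581 to 87804413) complete the set, with Mpo on the plus strand and the other two on the minus strand. Prtn3 overlaps Plppr3, and Mpo overlaps Gm11505, on the opposite strand. The sources used here do not state whether the counting used strand, so reads in those overlaps cannot be assigned with certainty.

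The promoters of 4 members, a pair of primary and a pair of specific granule genes, are shown as examples of where the searched letters were found. All 10 members matched the RefSeq promoter table of GRCm38.p6, which gives 250 bases before and 50 bases after each start. Capitals mark GAGGAAGT, a core of sites of the myeloid factor PU.1, in the first pair, and TTNNGCAA, a form of the C/EBP site, in the second pair, where the first stretch of Ngp is a match on the reverse strand and so reads as the reverse complement. Both strands were searched, and neither match overlaps another match in these promoters. The windows span chr10:79886062-79886361 for Elane, chr10:79879417-79879716 for Prtn3, chr9:111019042-111019341 for Ltf and chr9:110419558-110419857 for Ngp, all on the plus strand.
Elane: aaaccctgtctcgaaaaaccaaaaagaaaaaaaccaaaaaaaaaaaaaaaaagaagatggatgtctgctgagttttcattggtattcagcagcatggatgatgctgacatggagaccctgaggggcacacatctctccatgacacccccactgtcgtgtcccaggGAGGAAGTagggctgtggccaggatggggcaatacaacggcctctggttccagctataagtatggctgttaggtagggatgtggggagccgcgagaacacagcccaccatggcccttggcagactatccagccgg
Prtn3: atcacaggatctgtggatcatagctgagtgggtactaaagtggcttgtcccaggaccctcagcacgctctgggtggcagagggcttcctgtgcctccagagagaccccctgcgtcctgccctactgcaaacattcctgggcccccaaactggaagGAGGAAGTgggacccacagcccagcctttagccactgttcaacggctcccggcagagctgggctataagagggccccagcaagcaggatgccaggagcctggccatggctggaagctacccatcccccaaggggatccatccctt
Ltf: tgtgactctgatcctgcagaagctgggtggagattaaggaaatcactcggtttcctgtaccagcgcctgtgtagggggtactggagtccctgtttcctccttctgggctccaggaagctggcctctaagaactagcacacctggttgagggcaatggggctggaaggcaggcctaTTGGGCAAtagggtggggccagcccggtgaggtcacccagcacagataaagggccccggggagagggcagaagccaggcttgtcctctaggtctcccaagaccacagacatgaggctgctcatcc
Ngp: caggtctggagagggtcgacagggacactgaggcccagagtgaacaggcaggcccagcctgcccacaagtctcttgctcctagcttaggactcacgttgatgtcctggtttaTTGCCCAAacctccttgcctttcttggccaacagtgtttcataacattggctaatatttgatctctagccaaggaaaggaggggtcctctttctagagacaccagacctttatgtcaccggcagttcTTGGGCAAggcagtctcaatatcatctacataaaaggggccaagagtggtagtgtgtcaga
GAGGAAGT was found at -85 in Elane, -95 in Prtn3 and -224 in Mpo, counted from the start, and on the reverse strand at -172 in S100a8. That is 4 of 10 members, the primary granule genes among them, against 3.20% of 32851 promoters of that length. TTNNGCAA was found at -75 in Ltf, at -11 in Ngp and at -241 in Slpi, and on the reverse strand at -138 in Ngp, at -216 in Lcn2 and at -236 in S100a9, which is 5 of 10 members against 10.8% of promoters. Camp, a specific granule gene, held none of the 3 runs of letters searched, and S100a9, which holds TTNNGCAA, encodes a protein of the cytosol. TATAAA was found in 2 of 10 members, S100a8 and S100a9, against 13.6%. A match is a run of letters and was not tested as a site.

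Total depth was 56608582 to 93708304 unique molecular identifiers (UMIs, each counting 1 captured RNA molecule) per library. Filtering left 3051 to 4634 cells per library, with a median of 9714 to 12678 UMIs. Kept libraries shared 0 to 6 barcodes per pair. By Xist and Y-linked UMIs, both Het embryos and KO3 were male and KO1 and KO2 were female, so sex is partly confounded with genotype. In a fit with sex as a covariate, the genotype term therefore sets KO3 alone, the only male KO embryo, against Het1 and Het2. Zswim8 was measured at 37.1 and 38.7 CPM (UMIs scaled to a common library total) in Het and at 38.5, 38.7 and 40.4 CPM in KO. The sources used here do not state which part of Zswim8 is deleted, so these 3′ counts check no label.

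The neutrophils were 2 clusters, numbered 21 and 8, found without the 10 genes and named from 18 other neutrophil markers. Cluster 21 was led by Cd177, Itgb2l and Ly6g, and 18 of the markers were found in it. Cluster 8 was led by H2-Q10, Csta3 and Il1r2, with Csf3r and Cxcr2 (the receptors for granulocyte colony-stimulating factor and for CXC chemokines) among its top genes, and 16 markers were found. Together they held 297 and 313 cells in Het and 147, 199 and 193 cells in KO. The summed neutrophil markers stood at 27641 to 30214 CPM in these cells, at 961 to 1734 CPM in monocyte-like cells and at 87.9 to 160 CPM in epithelial cells. Markers of other cells in the neutrophil-like cells summed to 927 to 1996 CPM for epithelium and to 801 to 1045 CPM for monocytes. The label of the gene set fits 7 of its members in these lungs, since the neutrophil-like cells held most of their UMIs. It does not hold for Mpo, Elane and Prtn3 as measured here. For Elane the neutrophil-like cells held 50% of 120 UMIs, against 30.8% in monocyte-like cells, but all 60 came from 1 KO1 cell.

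Of the specific granule transcripts, Camp, Ngp and Ltf were held almost wholly by cluster 21, and Lcn2 was not. This cluster held 97.8% of all Camp UMIs in kept cells, 98.1% of those of Ngp and 94.9% of those of Ltf. A cell of cluster 21 held a mean of 42.4 and 50.8 Camp UMIs in Het and 63.6, 22.8 and 54.7 in KO. In cluster 8 the Camp level was 0.0299 and 0.0512 UMIs per cell in Het and 0.0306, 0.128 and 0.00763 in KO, while red-cell barcodes held 0.00554 to 0.0188. The genotypes overlapped in both clusters. Median depth was 5615.5 to 6947.5 UMIs per cell in cluster 21 and 3199 to 3663 in cluster 8, which is a far smaller gap than that of Camp.

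Ltf followed the same split, with 32.3 and 30.8 UMIs per cell in cluster 21 of Het and 17.2, 19.8 and 30.7 in KO. The Het values lay just above the highest KO value. In cluster 8, Ltf stood at 0 to 0.0306 UMIs per cell. Ngp stood at 78.7 and 75.5 UMIs per cell in cluster 21 of Het and at 66.5, 41.7 and 94.0 in KO, with KO3 above both Het libraries. In cluster 8, Ngp stood at 0.0305 to 0.0880. Camp, Ltf and Ngp were also unevenly spread inside cluster 21: a UMI of Ltf was found in 50% to 63.5% of its cells, one of Camp in 59.2% to 78.1% and one of Ngp in 70.3% to 82.3%, against at most 1.82% of red-cell barcodes.

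Lcn2 marked cluster 21 less sharply. Its level there was 59.1 and 58.2 UMIs per cell in Het and 57.5, 39.1 and 60.4 in KO. Cluster 8 held 3.28 and 3.76 in Het and 5.48, 4.42 and 3.73 in KO. KO2 was the lowest library for Lcn2 in cluster 21, as it was for Camp and Ngp. Cluster 21 held 63.4% of all Lcn2 UMIs of kept cells, and epithelial cells held 22%.

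The calgranulin transcripts were present in both neutrophil clusters. S100a8 stood at 779 and 796 UMIs per cell in cluster 21 of Het and at 801, 595 and 858 in KO. In cluster 8 it stood at 165 and 184 in Het and at 203, 208 and 194 in KO. S100a9 followed, with 980 and 1007 UMIs per cell in cluster 21 of Het and 1009, 806 and 1068 in KO. In cluster 8, S100a9 ran from 223 to 310 UMIs per cell. The genotypes overlapped in cluster 21. In cluster 8 all KO libraries lay above both Het libraries for both genes, and so did the median depth, at 3241 and 3199 UMIs per cell in Het and 3608.5, 3425 and 3663 in KO.

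Slpi differed least between the clusters. It stood at 10.0 and 13.4 UMIs per cell in cluster 21 of Het and at 12.7, 9.53 and 12 in KO. Cluster 8 held 6.69 and 8.42 in Het and 7.70, 9.09 and 8.63 in KO. With more cells, cluster 8 held 45.4% of all Slpi UMIs and cluster 21 held 32.0%. The plot of UMIs per barcode shows this order, with Camp, Ltf and Ngp at most 0.128 UMIs per cell in cluster 8 and the calgranulins and Slpi present in both.

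**Figure D1:**
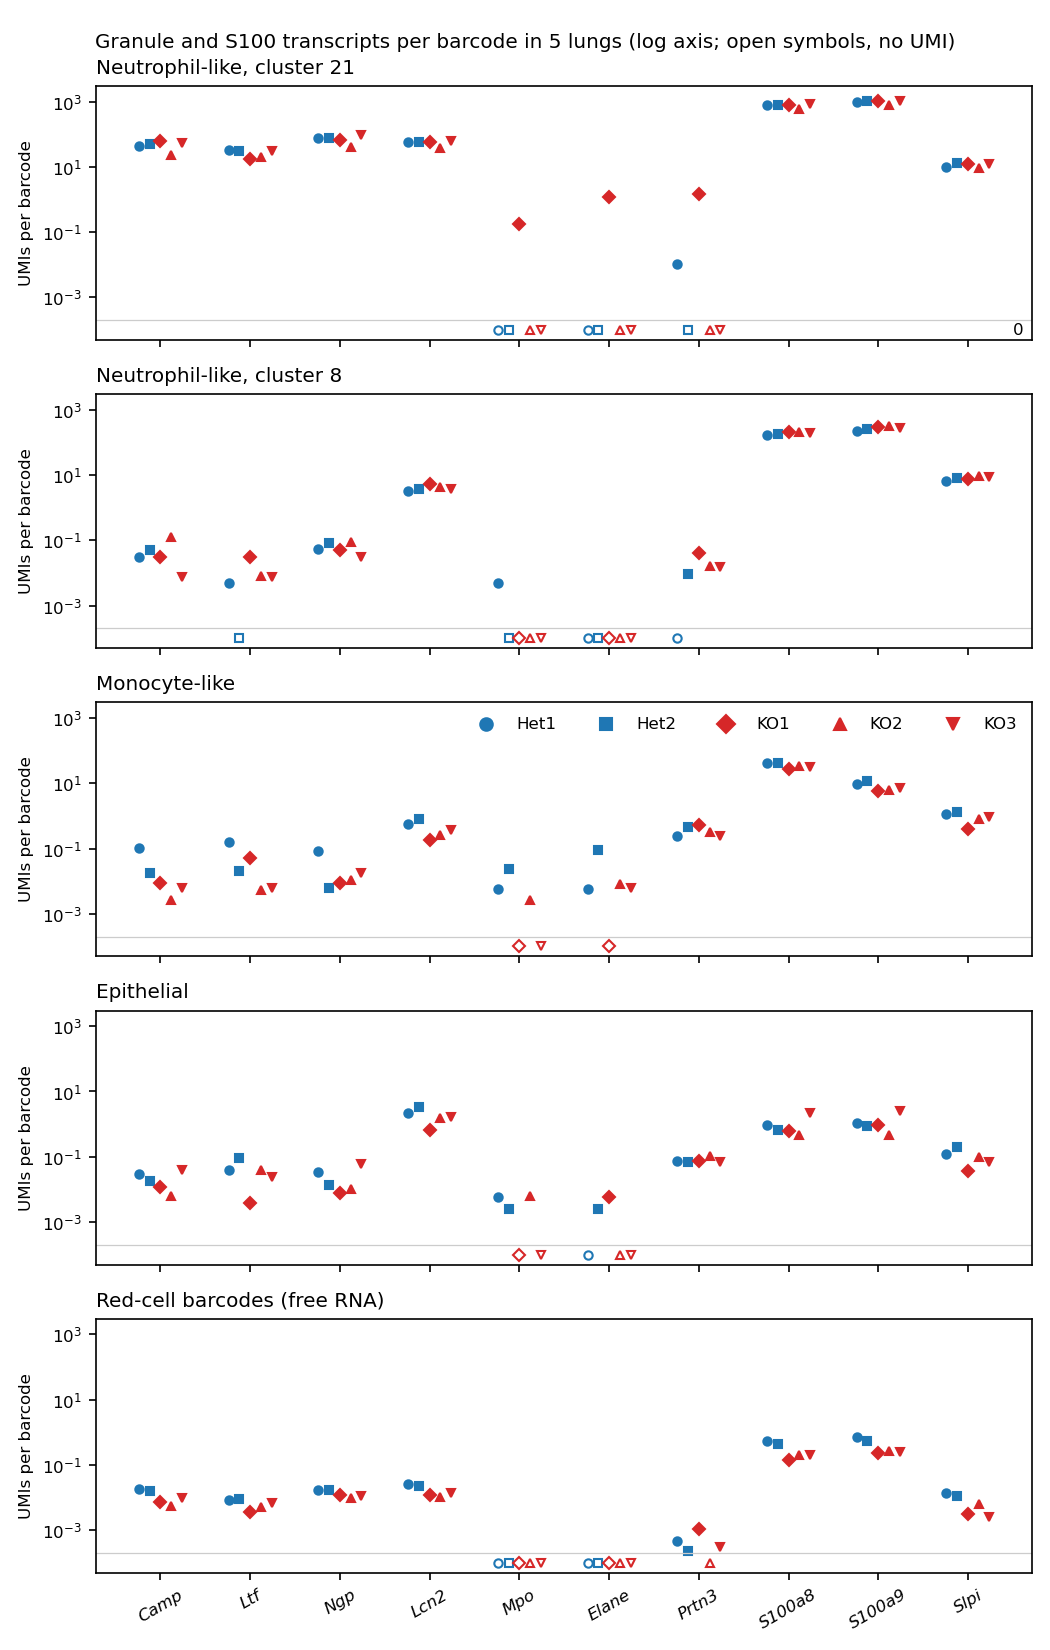
Mean UMIs per barcode (log axis) of the 10 genes (x axis) in 5 kinds of barcode, 1 symbol per library, blue for Het and red for KO, with open symbols at the bottom for 0 UMIs. Camp stands between 22.8 and 63.6 UMIs per cell in cluster 21 and at most 0.128 in cluster 8, while Slpi stays between 6.69 and 13.4 in both.

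Primary granule transcripts were close to absent from the neutrophils. Elane gave 0 UMIs in the neutrophil-like cells of Het1, Het2, KO2 and KO3 and 60 UMIs in KO1, all of them in a single cell. A count of 0 allows an Elane UMI in up to 0.958% to 1.55% of the cells of the other libraries. The KO1 cell had 38018 UMIs in all, among them 70 of Prtn3, 9 of Mpo, 17 of Ms4a3 and 45 of Fcnb, which are genes of promyelocytes and myelocytes. It also had 1881 of Camp, 742 of Ngp, 4254 of S100a8 and 4476 of S100a9. It thus held 60.3% of the Camp UMIs of the KO1 neutrophils. Without the top cell of each library, the Camp level in all neutrophil-like cells was 12.9 and 14.6 UMIs per cell in Het and 8.47, 7.38 and 15.6 in KO, against 13.7, 16, 21.2, 8.57 and 17.6 with it.

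Mpo was found mostly outside neutrophils. The basophil- or mast-like cluster, led by Cpa3 and Mcpt8, held 67.5% of the 237 Mpo UMIs of kept cells. It gave 28 and 70 UMIs in Het and 0, 52 and 10 in KO, and single cells held 21 of the 28 UMIs of Het1, 48 of the 70 of Het2 and 48 of the 52 of KO2. Neutrophil-like cells gave 1 and 0 Mpo UMIs in Het and 9, 0 and 0 in KO.

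Prtn3 was found in monocyte-like cells more than in any other class, with 42.7% of its 1171 UMIs. The cluster, numbered 12 and led by Ms4a4c, Plac8 and Adgre4, gave 0.247 and 0.467 UMIs per cell in Het and 0.521, 0.322 and 0.248 in KO. The genotypes overlapped, and 1 Het2 cell with 81 Prtn3 and 22 Elane UMIs gave 81 of the 154 UMIs of that library. Neutrophil-like cells gave 0.00337 and 0.00639 in Het and 0.503, 0.0101 and 0.0104 in KO, with 70 of the 74 UMIs of KO1 in the cell described above, and red-cell barcodes gave at most 0.00107. An epithelial cluster led by cilia genes such as Ccdc113 and Ak7 came next, with 12.3%. It gave 1.03 and 1.27 Prtn3 UMIs per cell in Het and 0.455, 0.733 and 0.483 in KO, at a median depth of 32859.5 to 63376 UMIs. The part of the overlap with Plppr3 in these counts was not tested.

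The ratio of S100a8 to S100a9 UMIs differed between the neutrophils and the monocytes and some of the macrophage clusters. In neutrophil-like cells it was 0.754 ± 0.0256 (SD, n = 5 libraries), with a range of 0.712 to 0.777. In monocyte-like cells it was 4.55 ± 0.7 (SD, n = 5), with a range of 3.54 to 5.49. Macrophage-like cluster 3, led by Plet1 and Olr1, stood at 11.2 ± 4.75, and macrophage-like cluster 4, led by Ear2 and Gal, at 14.4 ± 6.68 (SD, n = 5 each). No library of these clusters or of the monocytes overlapped the neutrophil range. The ratio compares the same pair of genes across cells, so gene length does not enter.

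Red-cell barcodes and the large non-immune classes stood near the neutrophil ratio. Red-cell barcodes, which have over 50% haemoglobin UMIs and under 500 genes and so report RNA free in the suspension, stood at 0.741 ± 0.0755 (SD, n = 5). Epithelial cells stood at 0.815 ± 0.128, endothelial cells at 0.830 ± 0.131 and mesenchymal cells at 0.772 ± 0.167 (SD, n = 5 each). Single epithelial clusters went against this, with 5.92 (95% interval 3.86 to 9.44) in cluster 2 of KO3 and 1.73 (1.09 to 2.81) and 2.30 (1.73 to 3.10) in cluster 10 of KO2 and KO3. The KO3 value of the epithelial class, 0.836, includes 1 barcode with 772 of its 1273 S100a8 UMIs. Rarer classes were spread too widely to place, from 0 to 3.90 in T, NK or innate lymphoid cells, from 0.523 to 3 in basophil- or mast-like cells and from 0.636 to 6 in erythroid cells. The clusters left unnamed, summed together, stood at 7.21 ± 1.93 (SD, n = 5), but they differed. Unnamed clusters 5, led by Gpr171 and S100a4, and 6, led by Nusap1 and Kif11, stood at means of 8.02 and 13.7. The means of the other unnamed clusters ran from 0.529 to 1.07. Other macrophage-like clusters stood near the neutrophil ratio. Cluster 24, led by Crybb1 and Cryba4, had a mean of 0.942, and cluster 29, led by Ccl7 and Ccl2, one of 0.618. Macrophage-like cluster 11, led by Ccl7, Ms4a7 and Ccl12, stood at 0.729 ± 0.0646 (SD, n = 5). Its S100a8 level of 0.214 to 0.709 UMIs per cell was near the 0.147 to 0.539 of red-cell barcodes, while clusters 3 and 4 held 3.83 to 8.08. S100a8 therefore stood above the free RNA in monocyte-like cells and in macrophage-like clusters 3 and 4, and S100a9 in those macrophage clusters, at 0.256 to 0.952 UMIs per cell, was near the red-cell level of 0.238 to 0.722.

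**Figure D2:**
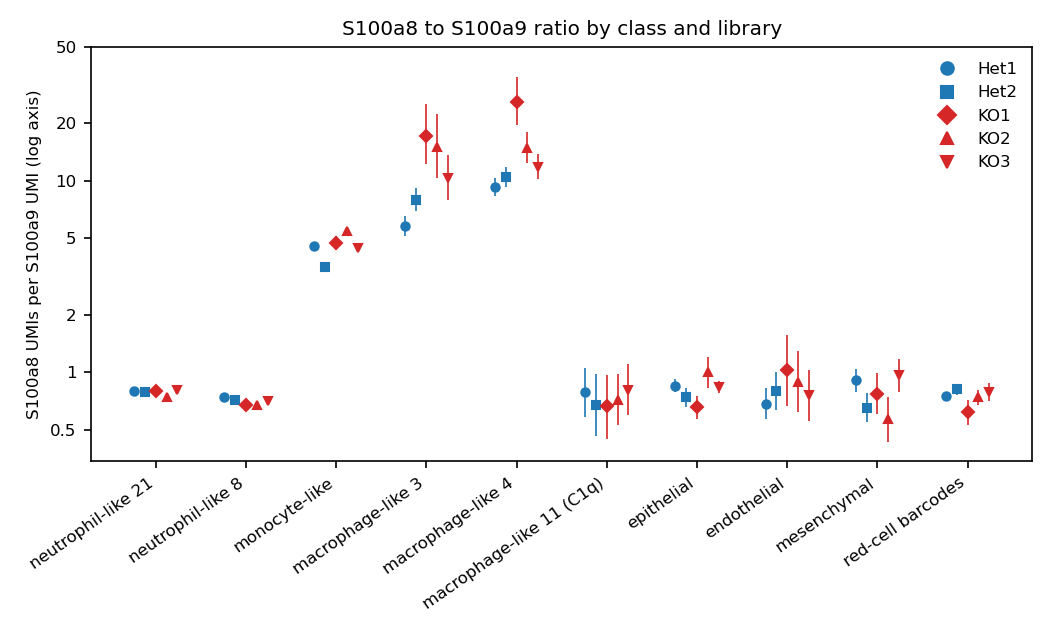
S100a8 UMIs per S100a9 UMI (y axis, log scale) in 10 kinds of barcode (x axis), 1 symbol per library, with exact binomial 95% intervals that cover counting error only. Monocyte-like cells stand at 3.54 to 5.49, macrophage-like clusters 3 and 4 at means of 11.2 and 14.4, and neutrophil-like cells at 0.712 to 0.777.

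Between genotypes, the neutrophils showed no member past the threshold. UMIs were summed per library and class and compared with edgeR over all genes tested (adjusted p under 0.05), and log2 fold changes are KO over Het. In neutrophil-like cells, 7 of the 10 members passed the low-count filter and 0 were called, where 0.0372% of 5377 genes were (2 genes, with 485 at an unadjusted p under 0.05, 1 of them a member), and DESeq2 called 0 members and 15 genes. S100a8 stood at 84299 and 82276 CPM in Het and at 82391, 75798 and 79841 CPM in KO, a log2 fold change of -0.07 ± 0.09 (SE). S100a9 differed by -0.02 ± 0.09, Slpi by -0.04 ± 0.12, Lcn2 by -0.17 ± 0.12, Ngp by -0.27 ± 0.19 and Camp by -0.06 ± 0.26 (SE). The Camp value includes the KO1 cell with 1881 Camp UMIs described above, most of the Camp UMIs of the KO1 neutrophils. A fit without that cell was not made. Ltf stood at 2421 and 2115 CPM in Het and at 1178, 1590 and 1935 CPM in KO, a log2 fold change of -0.53 ± 0.18 (SE). The value was -0.23 with embryo sex as a covariate, where KO3 alone is set against the Het libraries. Ltf was the 1 member whose groups did not overlap, where 26.4% of all tested genes did not overlap. The clusters taken alone gave 0 called members, where 0% of 3453 genes were called in cluster 21 and 0.0724% of 4142 in cluster 8.

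The other granule and neutrophil genes showed no call in the neutrophils either. Of 14 other specific and gelatinase granule genes, all 14 were tested and 0 were called, with a median log2 fold change of -0.19 against 0.00 over all genes tested. Of 17 mature neutrophil genes, 17 were tested and 0 called, with a median of -0.17. Of 10 other primary granule and precursor genes, 5 were tested and 0 called, and of 10 other S100 genes, 6 were tested and 0 called. Of 9 myeloid transcription factors, 6 were tested and 0 called, with a median of -0.06. At an unadjusted p under 0.05 the edgeR fit held 7 of the 17 mature neutrophil genes, 3 of the 14 specific and gelatinase granule genes, 1 of the 5 primary granule genes and 0 of the S100 and transcription factor genes.

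Neutrophil-like cells made up 6.41% and 7.70% of the kept cells of Het and 4.82%, 6.15% and 4.97% of those of KO. The mean of the Het libraries was 7.06% ± 0.915 (SD, n = 2) and that of the KO libraries 5.31% ± 0.729 (SD, n = 3), and the lowest Het library lay just above the highest KO library, KO2. The groups overlapped with immune cells as the denominator, where KO1 stood at 16.4% and Het1 at 15.1%, and with the stricter cell filter, where KO1 stood at 5.80% and Het1 at 5.78%. A two-sided exact permutation test of the share among kept cells gave p = 0.2, and 2 libraries against 3 cannot go below 0.1. Cluster 8 made up 4.34% and 5.29% of kept cells in Het and 3.21%, 3.86% and 3.37% in KO, without overlap, with p = 0.1 in the same exact test. Cluster 21 made up 31.8% ± 0.717 (SD, n = 2) of the neutrophil-like cells of Het and 34.2% ± 2.64 (SD, n = 3) of those of KO, with p = 0.4 in the same exact test. Monocyte-like cells made up 7.51% and 8.12% of kept cells in Het and 3.83%, 11.3% and 8.39% in KO, with KO1 below and KO2 above both Het libraries.

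Summed over all kept cells, 3 of the 10 members were called, all lower in KO, where 4.24% of 17743 genes were called in either direction. Nothing is read from that count, since the genes were chosen with this contrast known. Lcn2 stood at 147 and 158 CPM in Het and at 98.3, 83.7 and 84.7 CPM in KO, a log2 fold change of -0.78 ± 0.09 (SE). Ltf stood at 51.9 and 51.2 CPM in Het and at 22, 30.3 and 30.7 CPM in KO (-0.89 ± 0.14, SE). S100a8 stood at 2141 and 2299 CPM in Het and at 1666, 1673 and 1469 CPM in KO (-0.47 ± 0.08, SE). Both Het libraries lay above all KO libraries for 6 of the 10 members, where 46.5% of all tested genes did not overlap. In such sums, fewer cells of a type and less RNA per cell cannot be told apart; the shares and the levels per neutrophil are those given above. With the sex covariate, which sets KO3 alone against Het1 and Het2, the 3 log2 fold changes were -0.85, -0.75 and -0.60 for Lcn2, Ltf and S100a8. Without KO3, 0 members were called.

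Other neutrophil genes were called in the same sums. Of 17 mature neutrophil genes, 3 were called lower and 0 higher: Ly6g, a surface marker of mature neutrophils (-1.21 ± 0.14, SE), Mcemp1 (-0.61) and Il1r2, the decoy receptor of interleukin 1 (-0.42). Of 14 other specific and gelatinase granule genes, 4 were called lower: Hp, which encodes haptoglobin (-0.84), Cd177 (-0.77), the oxidase subunit Cybb (-0.67) and the lysozyme gene Lyz2 (-0.52). The medians of these lists were -0.42 and -0.54, against 0.01 over all genes tested. Of 7 receptors of the proteins, Ager (-0.95), which binds calgranulins and is itself abundant in alveolar type 1 cells, and the formyl peptide receptor gene Fpr1 (-1.12) were called lower. Of 10 other S100 genes, the calbindin gene S100g (-2.08), S100a1 (-0.48) and S100a13 (-0.38) were called lower. Of 7 WAP-domain and serine protease inhibitor genes, Wfdc17 (-2.07) and Serpinb1a (-0.61), an inhibitor of neutrophil serine proteases, were called lower, and the latter was the 1 gene called of 9 tested primary granule and precursor genes. Of the 9 transcription factors, 0 were called, with 2 at an unadjusted p under 0.05.

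Red-cell barcodes held less neutrophil RNA in the KO libraries. S100a8 stood at 0.539 and 0.429 UMIs per barcode in Het and at 0.147, 0.203 and 0.200 in KO. S100a9 stood at 0.722 and 0.528 in Het and at 0.238, 0.275 and 0.254 in KO. Camp stood at 0.0188 and 0.0157 in Het and at 0.00751, 0.00554 and 0.00980 in KO. These groups did not overlap, at median depths of 2328 to 2621.5 UMIs per barcode. In edgeR 7 members passed the filter and 4 were called, all lower, where 0.689% of 9143 genes were called: S100a8 (-1.64 ± 0.32), S100a9 (-1.55 ± 0.29), Camp (-1.50 ± 0.26) and Lcn2 (-1.27 ± 0.25, SE). The other tested members stood at -1.74 ± 0.41 (Slpi), -0.94 ± 0.25 (Ngp) and -0.91 ± 0.35 (Ltf, SE). All 7 had both Het libraries above all KO libraries, where 30.2% of tested genes did not overlap. Mpo and Elane gave 0 UMIs in the red-cell barcodes of each library, which allows up to 0.0455% to 0.161% of the barcodes of a library. With the sex covariate 0 of these members were called, and S100a8 stood at -1.59. Without Het1 or without Het2, 0 were called, and without KO3, Camp alone was.

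Of the other lists, Retnlg (-1.72), a resistin-like gene of mature neutrophils, and G0s2 (-1.21) were called lower in red-cell barcodes among 17 mature neutrophil genes, with a list median of -1.02 against 0.02 over all genes. The WAP-domain gene Wfdc21 (-2.20) and S100a6 (-0.95) were called lower in their lists of 7 and 10 genes. With library size alone in place of TMM scaling, 0 members were called in red-cell barcodes.

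In monocyte-like cells S100a8 stood at 41.8 and 41.0 UMIs per cell in Het and at 28.1, 33.1 and 32.2 in KO. The log2 fold change was -0.60 ± 0.12 (SE). S100a9 stood at 9.18 and 11.6 in Het and at 5.95, 6.02 and 7.26 in KO (-0.89 ± 0.13, SE). Lcn2 stood at 0.566 and 0.818 in Het and at 0.179, 0.265 and 0.371 in KO (-1.44 ± 0.24, SE), and Slpi differed by -0.90 ± 0.25 (SE). For these 4 members the groups did not overlap, where 30.3% of 9482 tested genes did not. None was called by edgeR, where 0% of tested genes were called (0 genes, with 1055 at an unadjusted p under 0.05, 5 of them members). DESeq2 called 3 members, Lcn2, S100a8 and S100a9, and edgeR called all 4 without KO1. Red-cell barcodes held 0.147 to 0.539 S100a8, 0.238 to 0.722 S100a9, 0.0106 to 0.0253 Lcn2 and 0.00253 to 0.0135 Slpi UMIs, each with both Het libraries above the 3 KO libraries. The summed neutrophil markers in these cells stood at 1611 and 1734 CPM in Het and at 961, 1409 and 1459 CPM in KO. The summed monocyte markers stood at 10379 and 10042 CPM in Het and at 7507, 6006 and 7267 CPM in KO, and Plac8 among them at 5535 and 5618 against 3514, 2983 and 3562 CPM. KO1 stood apart in its macrophage markers, at 3812 CPM against 1031 to 1511 CPM in the other libraries. The part of these in the result was not tested.

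Camp in monocyte-like cells rested on a single barcode. It gave 35 UMIs in Het1 and 6 in Het2, and 1, 1 and 2 in KO, and 25 of the 35 came from 1 Het1 cell. Het1 also gave 54 Ltf and 30 Ngp UMIs, 47 and 22 of them in 1 cell. Camp did not pass the low-count filter there. It passed with removed doublets kept and was then called, with a log2 fold change of -6.08. Clustering with the members kept gave -3.50 and Leiden resolution 2 gave -3.45, both called as well. Without the top cell of each library, Camp stood at 0.0288 and 0.0152 UMIs per cell in Het and at 0, 0 and 0.00308 in KO, near the 0.00554 to 0.0188 of red-cell barcodes.

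The genotype effect was compared between neutrophil-like and monocyte-like cells by an interaction term. Of 9 members tested, 3 were called, where 0.179% of 8375 genes were. The effect in neutrophils minus that in monocytes was 1.24 ± 0.26 (SE) for Lcn2, 3.34 ± 0.69 (SE) for Camp and 11.03 ± 2.09 (SE) for Elane. The Elane value rests on the KO1 cell with 60 UMIs and the Het2 monocyte-like cell with 22. The Camp value rests on the Het1 cell with 25, and its neutrophil side includes the KO1 cell with 1881 Camp UMIs. S100a9 stood at 0.83 ± 0.21 and S100a8 at 0.50 ± 0.20 (SE), neither called. Without Het1, 0 members were called, and without Het2 Camp alone was.

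In macrophage-like cells, a comparison added after the levels were seen, S100a8 and S100a9 were called lower in KO, and 2 of 7 tested members were called where 17.2% of 12505 genes were. S100a8 stood at 5.69 and 5.61 UMIs per cell in Het and at 3.36, 3.02 and 3.08 in KO (-0.84 ± 0.09, SE). S100a9 stood at 0.896 and 0.699 in Het and at 0.304, 0.362 and 0.404 in KO (-1.16 ± 0.13, SE). Both were called with the sex covariate and without each library. The S100a9 levels of red-cell barcodes, given above, lay somewhat below the macrophage levels in each library, and S100a9 was called lower in KO there too. The part of free RNA in the macrophage result was not tested. Cluster 11, whose S100a8 stands at the free-RNA level, held 117 and 104 of the macrophage-like cells in Het and 220, 222 and 257 in KO. Within cluster 4, S100a8 stood at 8.08 and 7.21 UMIs per cell in Het and at 7.41, 5.45 and 5.33 in KO. Within cluster 3 it stood at 5.54 and 6.01, and at 6.03, 3.83 and 4.64. Per cell, KO1 lay within or above the Het range in both clusters. Median depth was higher in each KO library than in both Het libraries. In cluster 3 it was 13981 and 14374.5 UMIs in Het and 16285, 15287 and 16027.5 in KO. In cluster 4 it was 14041 and 14476 in Het and 15491.5, 15496.5 and 15792.5 in KO. These levels per cell were not scaled to depth, unlike the log2 fold changes above. Relative to the total UMIs of the cluster, S100a8 was lower in each KO library, KO1 included, than in both Het libraries. That held in cluster 3 and in cluster 4, and no fit was made within either.

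**Figure D3:**
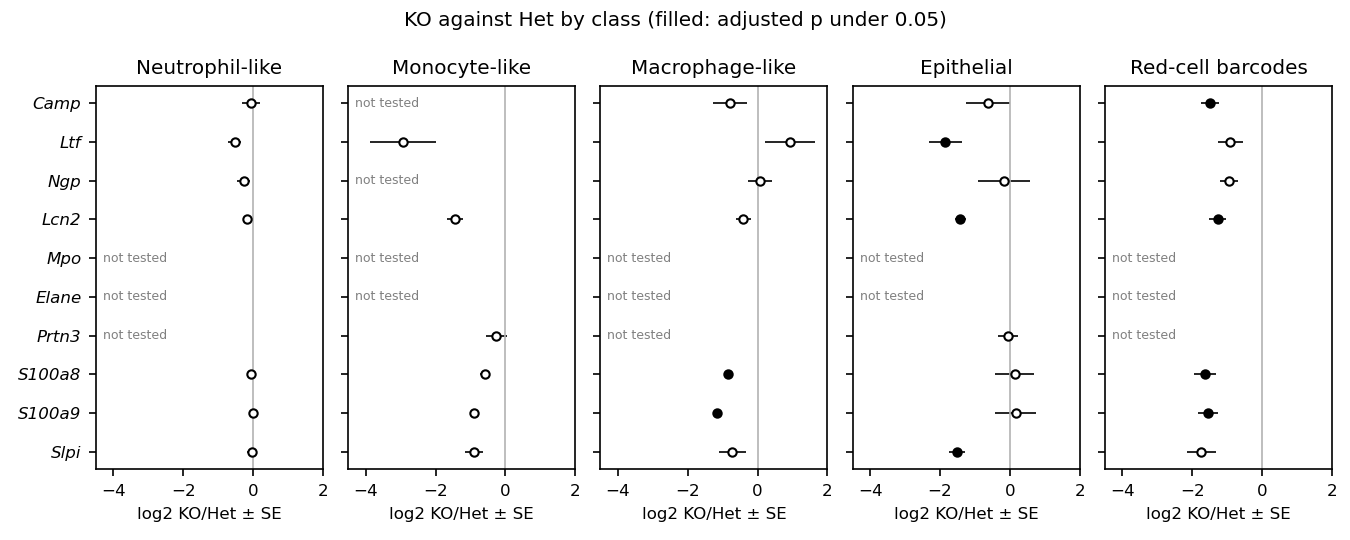
Log2 fold change of KO over Het with its SE (x axis) for each gene (y axis) in 5 sums per library, filled where the edgeR adjusted p was under 0.05. Values in neutrophil-like cells lie between -0.53 and -0.02, while those in red-cell barcodes lie between -1.74 and -0.91.

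Epithelial cells held Lcn2 far above the level of red-cell barcodes, and it was lower in KO. Of 8 tested members, 3 were called lower, where 9.22% of 15149 genes were called. Lcn2 stood at 108 and 139 CPM in Het and at 39.3, 43.3 and 54.7 CPM in KO, a log2 fold change of -1.42 ± 0.15 (SE). Slpi stood at 6 and 8.41 CPM in Het and at 2.20, 2.87 and 2.34 CPM in KO (-1.52 ± 0.22, SE). Ltf stood at 1.99 and 3.85 CPM in Het and at 0.232, 1.16 and 0.8 CPM in KO (-1.85 ± 0.47, SE). These 3 were also the members without overlap, where 44.9% of tested genes did not overlap. Neutrophil markers in epithelial cells summed to 160 and 135 CPM in Het and 99.4, 92.6 and 87.9 CPM in KO, and Hdc alone, itself called lower in epithelial cells, gave 107.6 and 87.8 against 56.9, 59.7 and 35.2 CPM. Without Hdc the other 17 markers summed to 52.7 and 47.3 CPM in Het and 42.5, 32.9 and 52.7 CPM in KO, with overlap. Endothelial markers were also lower in the KO libraries in the same cells, at 1423 and 1476 CPM in Het and 371, 326 and 520 CPM in KO, and so was the club cell gene Scgb1a1, at 4809 and 5029 against 1823, 1579 and 1190 CPM. The part of these in the result was not tested. Per cell, Lcn2 stood at 2.13 and 3.30 UMIs in Het and at 0.659, 1.51 and 1.61 in KO, while red-cell barcodes held 0.0253 and 0.0226 in Het and 0.0118, 0.0106 and 0.0142 in KO. Ltf stood far lower, at 0.0391 and 0.0916 UMIs per epithelial cell in Het and at 0.00388, 0.0404 and 0.0236 in KO, against 0.00375 to 0.00882 in red-cell barcodes. Slpi stood at 0.118 and 0.200 UMIs per epithelial cell in Het and at 0.0368, 0.1 and 0.0690 in KO, against 0.0135 and 0.0112 in Het and 0.00322, 0.00655 and 0.00253 in KO in red-cell barcodes, whose log2 fold change of -1.74 is given above. Lcn2 was called in each of the 17 alternative fits, and Slpi was called with the sex covariate but not without Het2. Ltf was not called with the sex covariate or without any single library.

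S100a8 in epithelial cells depended on single barcodes. It stood at 0.943 and 0.643 UMIs per cell in Het and at 0.618, 0.464 and 2.14 in KO, with KO3 highest. In KO3, 772 of 1273 UMIs came from 1 barcode, and without the top barcode of each library the values were 0.930 and 0.628, and 0.357, 0.433 and 0.845. The log2 fold change was 0.13 ± 0.56 (SE), not called. When cells with UMIs of at least 3 of 8 neutrophil markers were left out (6, 5, 1, 6 and 5 cells in Het1, Het2, KO1, KO2 and KO3), S100a8 was called lower, at -1.02, and so it was with the list of 18 markers, at -1.35, and with the replicate block, at -0.68. Red-cell barcodes held 0.147 to 0.539.

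Lcn2 was concentrated in a few epithelial clusters. Cluster 18, led by Lyz1, Retnla and S100g and holding the alveolar type 2 genes Sftpc and Lamp3, gave 6.05 and 8.90 UMIs per cell in Het and 2.26, 3.89 and 3.52 in KO. Median depth in that cluster was 15476 and 17503.5 UMIs in Het and 10933, 24099.5 and 21004 in KO. Cluster 22, led by Aqp5 and Cldn18, gave 4.22 and 6.42 in Het and 3.12, 4.22 and 4.55 in KO, which overlap. Its cells were deeper in KO, with medians of 40122 and 45993.5 UMIs in Het and 51424, 87043 and 67479 in KO. Cluster 2, led by cilia genes, gave 2.69 and 5.60, and 0.409, 1.03 and 0.448, but 116 of the 168 UMIs of Het2 came from 1 cell. Cluster 9, led by Aqp5 and Ager, ran the other way per cell, with 0.0699 and 0.243 in Het and 0.331, 0.752 and 0.588 in KO. Its median depth was 8866 and 9850 UMIs in Het and 9538.5, 14098 and 13894.5 in KO. These levels per cell were not scaled to depth. Relative to the total UMIs of the cluster, Lcn2 in cluster 22 was lower in each KO library than in both Het libraries. In cluster 9 the groups overlapped on that scale. No test was made between these clusters.

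Cluster 18 was chosen as the epithelial cluster with most Lcn2, after its values were seen. In its sums 4 members passed the low-count filter and 4 were called lower, where 18% of 11169 genes were called. Lcn2 stood at 361 and 462 CPM in Het and at 91.5, 86.5 and 96.8 CPM in KO (-2.16 ± 0.13, SE). Slpi stood at 14.5 and 17.2 CPM in Het and at 2.86, 4.76 and 4.26 CPM in KO (-1.92 ± 0.25, SE). S100a8 (-1.67 ± 0.23) and S100a9 (-1.53 ± 0.19, SE) were called too, at a ratio of 0.723 ± 0.0580 (SD, n = 5), near that of the free RNA. The 4 members were called with the sex covariate and without each library. Lcn2 stood at -2.09 with the covariate.

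**Figure D4:**
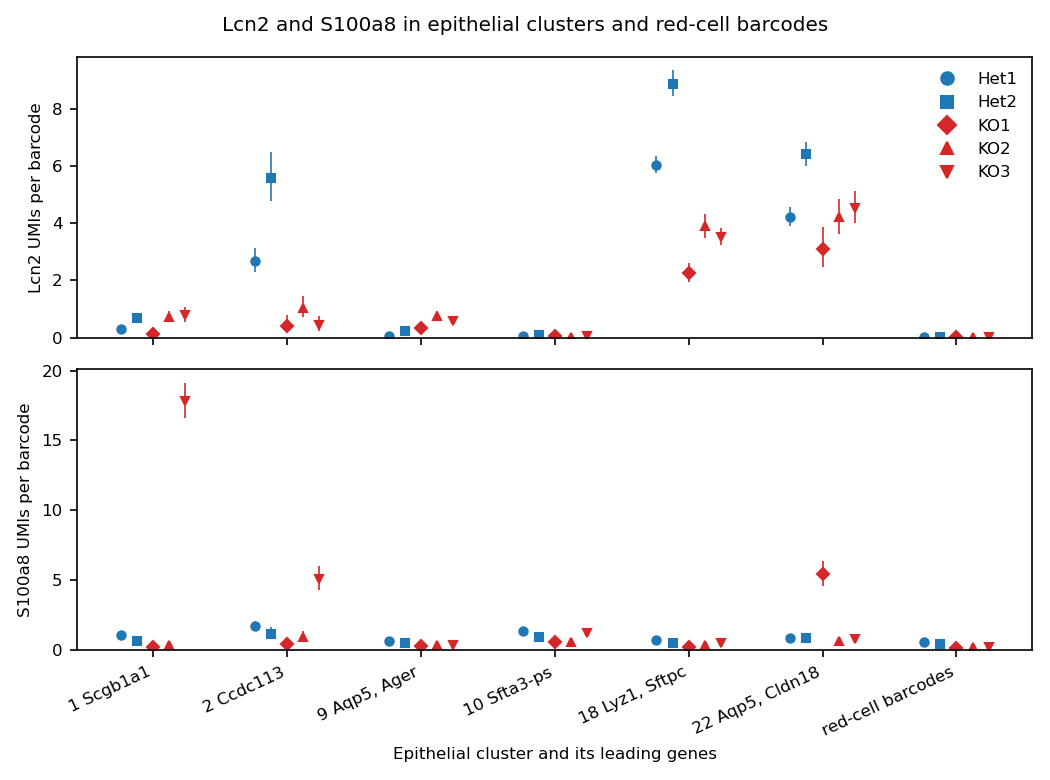
Lcn2 (upper) and S100a8 (lower) UMIs per barcode (y axes) in 6 epithelial clusters and in red-cell barcodes (x axis), 1 symbol per library, with exact Poisson 95% intervals that cover counting error only. Lcn2 in cluster 18 stands at 6.05 and 8.90 in Het and at 2.26 to 3.89 in KO, and the high S100a8 of KO3 in cluster 1 came from the barcode with 772 UMIs.

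Other genes shared with neutrophil granules were lower in the same epithelial cluster. Of 14 other specific and gelatinase granule genes, 4 were tested in cluster 18 and 3 called lower: Lyz2, a lysozyme gene also made by alveolar type 2 cells (-3.21 ± 0.28, SE), Hp (-1.98) and Pglyrp1 (-0.92), which encodes a peptidoglycan recognition protein. Of 17 mature neutrophil genes, Hdc, the histidine decarboxylase gene (-3.75), and Lrg1 (-3.37) were called lower among 7 tested. Of 10 other S100 genes, 4 of 9 tested were called lower, S100g (-2.48), S100a6 (-0.77), S100a1 and S100a13. The list medians were -1.45, -0.65 and -0.57, against 0.01 over all genes tested. Of the receptors, Lrp2, which encodes the endocytic receptor megalin and takes up lipocalin 2, was called lower in all epithelial cells (-2.19 ± 0.30, SE), and Slc22a17, a lipocalin 2 receptor gene, was called higher (0.60 ± 0.13, SE).

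Outside these classes, single clusters held Lcn2 or Slpi. An endothelial cluster led by Ccl21a, Reln and Mmrn1, genes of lymphatic endothelium, gave 3.25 and 12.6 Lcn2 UMIs per cell in Het and 4.43, 1.60 and 4.25 in KO, from 5 cells in Het2. A mesenchymal cluster led by Upk3b and Lrrn4, genes of mesothelium, gave 1.90 and 2.49 Slpi UMIs per cell in Het and 0.878, 0.238 and 1.05 in KO, far above the red-cell barcodes. Neither was compared by a test.

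The genes whose levels were most like those of the members were found over 40 sums (8 classes in 5 libraries, 11543 genes) by Pearson's r of log2(CPM + 1). The sums of 1 library share their depth and free RNA, so r is given as a description. Camp was most like Padi4 (0.975), which encodes a peptidylarginine deiminase of neutrophils, Mrgpra2b and Itgb2l. Ltf was most like Ceacam10 (0.960), Padi4 and Krt83, and Ngp was most like Itgb2l (0.982), Gm11714 and Padi4. S100a9 was most like the protease inhibitor genes Stfa2l1 (0.989), Cstdc4 and Stfa1, and S100a8 was most like Cstdc4 (0.964), Stfa3 and Stfa1. Slpi shared Stfa1 (0.931), Stfa2l1 and Cstdc4 with the calgranulins. Lcn2 was most like Dhrs7 (0.923), Cd177 and Hdc. For Prtn3 the highest was 0.775 (Gm21188), for Elane 0.513 (Fcnb) and for Mpo 0.449 (Zfp971), all from few UMIs. Among the members, Camp and Ngp were the most alike (0.978), and Prtn3 and Ltf the least (0.142).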

How the data were processed

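Droplet-based 3′ libraries of whole lungs were measured in 5 embryos, 2 Het and 3 KO, grouped by genotype label. Tables hold UMI counts, deposited as whole numbers for each gene in each barcode. Per the file headers, the authors used Cell Ranger, with version 4.0.0 and mm10 per the submitters' processing notes. How barcodes were called is not given in the sources used here. The members and gene lists were chosen with earlier results of these data known. Cells had 500 genes or more and mitochondrial UMIs of 15% or less. Doublets were scored by neighbours among 2 simulated doublets for every barcode (20 components), and the top 0.8% for each 1000 cells were removed, 78 to 186 in a library.

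Cells were clustered in scanpy 1.11.5 on 2000 variable genes, members left out, after scaling to 10000 UMIs and a log (30 components, 15 neighbours, Leiden resolution 1). Clusters were named from lists of markers that hold no member: at least 3 markers in 20% of cells with a log2 fold above 0.5, a mean above 1, and at least 1 in the top 10 genes. The last condition was set after the clusters were seen. Names are rebuilt from these data.

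UMIs were summed over the cells of a class in each library and compared with edgeR 4.0.16 quasi-likelihood tests (TMM, filterByExpr, two-sided, Benjamini-Hochberg adjusted p over all genes). CPM in the comparisons use TMM-scaled totals. P-values of these tests set a genotype difference against the spread between these embryos, not between cells. The interaction fit held the library as a block. Named genes were the members, Zswim8, up to 5 genes per list called without overlap of the groups, and the 3 genes most like each member; leading genes of clusters and the genes of single cells were picked after seeing values. Tried as alternatives were DESeq2 1.42.0, other scalings, filters and clusterings, the sex of the embryo, the replicate number as a block, and leaving out each library. Sums over macrophage-like cells, over cluster 18 and over each neutrophil cluster, and the list of 8 markers, were chosen after seeing the data. The fits were tested on simulated data. Intervals and floors cover counting error only.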

Additional observations from a re-analysis of the deposited data

Results flagged for a closer look

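The interaction of genotype with cell class, fitted with edgeR over neutrophil-like and monocyte-like sums, passed for 3 of the members. Lcn2 differed by 1.24 (log2, the effect in neutrophil-like cells minus that in monocyte-like cells, adjusted p 0.0396), and by 0.93 to 1.57 with 1 library left out, where it did not pass without Het1 or without Het2. Nor did Lcn2 pass with library size alone, with members kept in the clustering or at Leiden resolution 0.5. The same held with cells of at least 3 of 18 neutrophil markers left out. Lcn2 passed without the low-count filter, at Leiden resolution 2 and with cells of at least 3 of 8 markers left out. Camp differed by 3.34 (adjusted p 0.0379), and turned to -0.26 once cells with at least 3 of 18 neutrophil markers were left out. That filter left out most monocyte-like cells. In Het it left out 305 of 348 and 287 of 330, and in KO 83 of 117, 319 of 366 and 281 of 326. A shorter list of 8 markers, chosen after seeing the data, left out 8 and 14 cells in Het and 1, 7 and 8 in KO. With it, Camp stood at 2.05. It passed in neither, nor with library size alone, at Leiden resolution 0.5, without Het1 or without KO3. Elane differed by 11.03 (adjusted p 0.0268), a fitted value that rests on 1 cell in KO1 and 1 in Het2 and is no measure of size. These differences stand in genes chosen with the contrast known.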

How the results depend on the processing

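The count of called members moved with the processing in most comparisons. Over all kept cells, 3 were called, against 6 with DESeq2, 0 with the sex covariate and 0 to 3 with 1 library left out (0 without Het1, Het2 or KO3). In neutrophil-like cells, 0 were called, against 3 without the low-count filter (Ltf, Elane and Prtn3). In monocyte-like cells, 0 were called, against 3 with DESeq2, 8 without the filter, 6 with doublets kept, 3 with members kept in the clustering, 3 at Leiden resolution 2 and 0 to 4 with 1 library left out (4 without KO1). In epithelial cells, 3 were called, against 5 with cells of at least 3 of 18 neutrophil markers left out, and 1 to 2 with 1 library left out (1 without Het2). In red-cell barcodes, 4 were called, against 0 with library size alone, 0 with the sex covariate and 0 to 5 with 1 library left out. For the interaction, 3 were called, against 1 with library size alone, 7 without the filter, 1 at Leiden resolution 0.5, 0 with cells of at least 3 of 18 markers left out and 0 to 5 with 1 library left out. Over all genes, DESeq2 called 2163 of 17743 in all kept cells and 45 of 9482 in monocyte-like cells. Without the filter, 105 of 15112 genes were called in neutrophil-like cells, 411 of 16533 in monocyte-like cells and 58 of 14213 for the interaction. In monocyte-like cells, 192 of 10705 were called with doublets kept, 160 of 10937 with members kept and 106 of 10584 at Leiden resolution 2. The causes of these moves were not tested.

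Replicate numbers were shared by the genotypes, but Het1 and KO1 deviated from their group means with a correlation of -0.1075 and Het2 and KO2 with -0.1098 over 17743 genes, so no pairing was established. With the replicate block, 0 members were called over all kept cells, 2 in monocyte-like cells, 4 in epithelial cells and 5 in red-cell barcodes. Over all genes, the same fits called 9 of 17743, 13 of 9482, 1881 of 15149 and 257 of 9143.

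Some signs turned. In neutrophil-like cells, library size alone gave 0.054 for Camp, 0.044 for S100a8, 0.097 for S100a9 and 0.069 for Slpi, and the sex covariate gave 0.044 for Camp and 0.093 for Ngp. S100a9 gave 0.0022 with the replicate block and 0.0046 with doublets kept. With 1 library left out, the ranges were -0.33 to 0.23 for Camp (above 0 without Het2 or KO2), -0.037 to 0.0068 for S100a9 (above 0 without KO3) and -0.19 to 0.10 for Slpi (above 0 without Het2). S100a8 in epithelial cells gave -0.68 with the replicate block, -0.38 with the stricter cell filter (1000 genes, 10% mitochondrial UMIs), -1.35 and -1.02 with cells of at least 3 of 18 or 3 of 8 markers left out, and -0.65 to 0.61 with 1 library left out (below 0 without Het2 or KO3). The interaction of Camp, 3.34 in the reported fit, gave -0.26 with cells of at least 3 of 18 markers left out. That filter removed most of the monocyte-like cells.

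Genes called ranged from 1 to 2163 over all kept cells (753 in the reported fit), from 0 to 105 in neutrophil-like cells (2), from 0 to 411 in monocyte-like cells (0), from 930 to 2493 in epithelial cells (1397), from 0 to 320 in red-cell barcodes (63) and from 2 to 58 for the interaction (15). With 1 library left out, the ranges were 2 to 817, 0 to 95, 0 to 339, 373 to 1675, 0 to 231 and 1 to 54. Where 1 Het library remained, it was assumed to vary like the KO libraries. Other values kept their direction and their side of the threshold in 149 cases with 1 library left out and in 242 under other settings, while 36 and 27 were no longer called and 8 and 26 were newly called.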
